A study of Danio rerio with 4 samples.

Results

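Genes of chloride, bicarbonate and water transport were examined in sorted cells of the adult zebrafish pancreas. The set holds 8 genes, taken by symbol from the authors' deposited tables, in which 3020 distinct genes are listed in all. They encode the chloride channels cftr and clcn1b, the sodium bicarbonate cotransporter slc4a4b, the carbonic anhydrases ca4a and ca4b, and the water channels aqp8a.1, aqp1a.1 and aqp12.

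The groups were isolated centroacinar cells (CAC) and isolated non-centroacinar cells (non-CAC), sorted by FACS (fluorescence-activated cell sorting) after the pancreas of adult AB strain fish had been dissected on ice and dissociated. There were 2 CAC and 2 non-CAC libraries, and the sample descriptions assign both libraries of a replicate to 1 table. No treatment, transgene or fish age is given in the sources used here, nor is the gate of the sort, how many fish were pooled, or whether the replicates came from separate fish. If they did not, spread between replicates is technical.

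Each table is a list of genes called different within a replicate, 1812 genes in replicate 1 and 1560 in replicate 2, with no value per library. Every value is a ratio between a CAC and a non-CAC library, with a numerator that the file headers leave unnamed. Genes are therefore described as lying below 1 or above 1, and no side is assigned to CAC or to non-CAC. Depth per library is unknown. In bulk libraries such as these, fewer cells of a type and less RNA per cell cannot be told apart.

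The duct system of the pancreas secretes a bicarbonate-rich fluid that carries digestive enzymes to the gut. In mammals, bicarbonate enters duct cells through a basolateral sodium bicarbonate cotransporter or is made from carbon dioxide by carbonic anhydrases. It leaves across the apical membrane through CFTR, a chloride and bicarbonate channel opened by cyclic AMP, and through anion exchangers, and water follows by osmosis. Centroacinar cells are the terminal cells of the ducts and lie within the acini.

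Of the 8 genes, 5 lay below 1 in both authors' deposited tables, namely clcn1b, cftr, slc4a4b, ca4b and aqp8a.1. Another 2, ca4a and aqp1a.1, were listed in replicate 1 alone and lay above 1, and aqp12 was listed in replicate 2 alone, also above 1. The members of the carbonic anhydrase pair and of the aquaporins thus lay on different sides. In replicate 1, 5 of 7 listed genes were below 1 and 2 above, where 33.4% of all genes in that table were below and 66.6% above. In replicate 2, 5 of 6 were below 1 and 1 above, where 57.1% of all listed genes were below and 42.9% above. Their median log2 ratio was -6.66 in replicate 1 and -3.71 in replicate 2, beside 6.02 and -1.90 over all listed genes. In replicate 1, 63.6% of the genes above 1 had posterior and uncorrected folds that differ by over 10 times. None of the 5 genes below 1 did, so the shares and medians over all genes there are an unlike background. Of the 819 genes with such folds in replicate 1, 767 lay above 1. They were thus rare among the 606 genes below 1, and their lack is not particular to the 5. No ratio between 0.0571 and 35.3 was listed in replicate 1, so the median over all genes mainly shows which side held more genes. The 8 genes were chosen with these results known, so the counts describe them and do not test them.

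**Figure D1:**
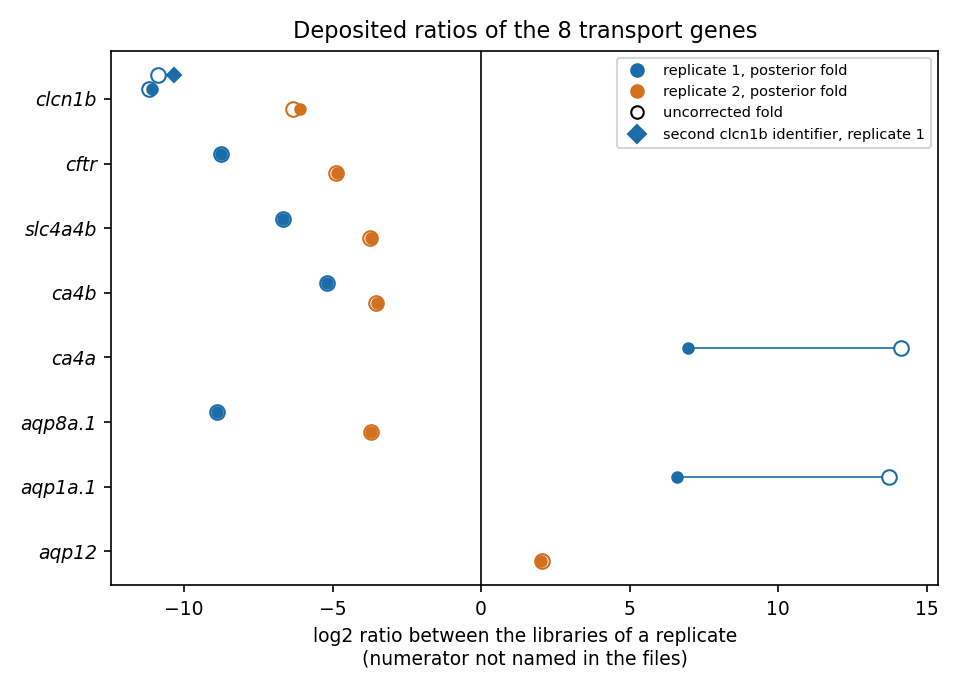
Deposited ratios of the 8 transport genes, as log2 of the ratio between the CAC and non-CAC libraries of a replicate (horizontal axis, numerator not named in the files), with a row per gene. Filled points are the posterior fold and open points the uncorrected fold, blue for replicate 1 and orange for replicate 2, and the diamond is the second clcn1b identifier. The 5 genes with a point in both colours lie below 0 in both, and the open points of ca4a and aqp1a.1 lie far from their filled points.

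Markers of the sorted populations were placed in the same tables. Their lists were chosen with earlier results known, so they describe the surroundings of the set and do not check its label. Of 14 ductal and centroacinar markers (cftr among them), 10 were listed in replicate 1 and 11 in replicate 2, all below 1, with 9 in both. Over all listed genes, 33.4% were below 1 in replicate 1 and 57.1% in replicate 2. In the authors' deposited tables the ductal markers included nkx6.1, a regulator of pancreatic progenitors, at log2 ratios of -6.76 and -2.32. They also included the Notch target her15.1 at -10.38 and -4.25. Of 19 acinar markers, 0 were listed in replicate 1 and 15 in replicate 2, all above 1, where 42.9% of all listed genes were above. Besides cftr, which is a marker itself, 4 transport genes lay on the side of the ductal markers in both tables, while ca4a, aqp1a.1 and aqp12 lay on the other side where listed. In replicate 2 the side of the ductal markers also held all 6 listed oocyte markers of 12, so a shared side does not by itself place a gene in duct cells.

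The chloride channel gene clcn1b (ENSDARG00000012269, Zv9 chromosome 16, 19539814 to 19603548) encodes a relative of the voltage-gated chloride channel that sets the resting conductance of skeletal muscle in mammals. The authors' deposited tables gave it a posterior fold of 0.000466 in replicate 1 and 0.0145 in replicate 2, which are 2144 and 68.9 times from 1. These are log2 ratios of -11.07 and -6.11. Only 1 of the 1812 genes in replicate 1 had a lower ratio, and clcn1b stood at position 57 from the lowest in replicate 2. In the authors' deposited tables, its posterior probability of equal expression was 1.86e-12 in replicate 1 and was listed at 0 in replicate 2.

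In replicate 1, a second Ensembl identifier carries the symbol clcn1b and the same locus. The authors' deposited table gave it a log2 ratio of -10.35, the fourth lowest of all. By posterior fold the identifiers differed by 0.71 on the log2 scale. Their uncorrected log2 ratios in the authors' deposited table were closer, at -11.185 and -10.89. Only the first was listed in replicate 2. Reads could be split between identical or overlapping models, so the separate values of the identifiers are uncertain, while both lie on the same side.

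The chloride and bicarbonate channel gene cftr (ENSDARG00000041107, Zv9 chromosome 18, 20457800 to 20503521) had a posterior fold of 0.00233 in replicate 1 and 0.0345 in replicate 2 in the authors' deposited tables. These are 429 and 29.0 times from 1, or log2 ratios of -8.74 and -4.86. It stood at position 10 from the lowest of 1812 genes and at position 124 of 1560. Both folds of the deposited tables agree for this gene, with uncorrected values of 0.00233 and 0.0342.

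The cotransporter gene slc4a4b (ENSDARG00000044808, Zv9 chromosome 21, 5945518 to 6024856) encodes a relative of the mammalian transporter that brings sodium and bicarbonate into duct cells. Its posterior fold was 0.00988 in replicate 1 and 0.0764 in replicate 2 in the authors' deposited tables, 101 and 13.1 times from 1. The log2 ratios were -6.66 and -3.71. It stood at position 86 from the lowest in replicate 1 and at position 253 in replicate 2, so it was less extreme than both channel genes in each table.

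Markers of ionocytes, which also move chloride and bicarbonate in fish, were placed beside these channel and cotransporter genes. Of 14 ionocyte markers, only foxi3b, a transcription factor gene of skin ionocytes, was listed, and it lay on the opposite side from cftr and slc4a4b. The authors' deposited tables gave foxi3b log2 ratios of 5.84 in replicate 1, where its posterior and uncorrected folds differ by over 10 times, and 3.27 in replicate 2. The other 13 ionocyte markers were in neither table.

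The carbonic anhydrase genes ca4a and ca4b encode relatives of a membrane-anchored enzyme that interconverts carbon dioxide and bicarbonate at the cell surface. ca4b (ENSDARG00000042293, Zv9 chromosome 15, 14409896 to 14420932) had a posterior fold of 0.0276 in replicate 1 and 0.0880 in replicate 2 in the authors' deposited tables, 36.2 and 11.4 times from 1. Its log2 ratios were -5.18 and -3.51. It was the least extreme of the 5 genes in both tables, at position 291 of 1812 and 285 of 1560 from the lowest, and it showed the smallest difference between replicates.

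Its paralog ca4a (ENSDARG00000043589, Zv9 chromosome 5, 2436629 to 2448392) lay on the opposite side in replicate 1, at a posterior fold of 125 in the authors' deposited table, a log2 ratio of 6.97. It was a floor gene, the name used here for genes whose posterior and uncorrected folds differ by over 10 times. Of the genes above 1 in replicate 1, 63.6% were floor genes, and so were both of the set, ca4a and aqp1a.1. The uncorrected fold of ca4a in the authors' deposited table was 17899, larger than its posterior fold by a factor of 143. Its size therefore depends on the fold column, while its side does not. ca4a was not listed in replicate 2, so the opposite sides of the pair rest on 1 pair of libraries. Another relative, ca4c, was in neither table.

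Among the water channel genes, aqp8a.1 (ENSDARG00000045141, Zv9 chromosome 12, 21718601 to 21725551) had a posterior fold of 0.00213 in replicate 1 and 0.0768 in replicate 2 in the authors' deposited tables. These are 470 and 13.0 times from 1, or log2 ratios of -8.88 and -3.70. It was at position 9 from the lowest in replicate 1, just beyond cftr, and at position 254 in replicate 2, next to slc4a4b. The difference between the replicates, 5.17 on the log2 scale, was the largest of the 5 genes. The adjacent tandem copy aqp8a.2 and the relative aqp8b were in neither table. A relative of aqp8a.1 is also active in the intestine of mammals. None of 12 enterocyte markers was listed in either table, and absence does not show equal expression. The part of intestinal cells in the ratio of aqp8a.1 was not tested.

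The gene aqp1a.1 (ENSDARG00000023713, Zv9 chromosome 2, 2888642 to 2900295) encodes a water channel of endothelial and red blood cells. It lay above 1 in the authors' deposited table of replicate 1, with a posterior fold of 95.8, or 6.58 on the log2 scale. It was a floor gene, with an uncorrected fold of 13689 in the same deposited table, a factor of 143 larger. It was not listed in replicate 2, and neither was its adjacent copy aqp1a.2 in either table.

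Endothelial and erythrocyte markers were set beside aqp1a.1. Of 15 endothelial markers, aqp1a.1 included, 4 were listed in replicate 1, and 0 in replicate 2. Of those 4, 3 lay above 1 and 1 below. Over all listed genes, 66.6% in replicate 1 and 42.9% in replicate 2 were above 1. The authors' deposited table of replicate 1 held the receptor gene flt1 at a log2 ratio of 5.86, or 6.91 by uncorrected fold. The transcription factor gene etv2, a floor gene, was at 8.56 in the same deposited table. Both lay on the side of aqp1a.1. The endothelial cadherin gene cdh5 lay on the other side, at -4.71, and kdrl was in neither table. Of 11 erythrocyte markers, the authors' deposited tables listed rhag in replicate 1 at 5.94, a floor gene, and hbaa1 in replicate 2 at 3.12. The part of these cells in the ratio of aqp1a.1 was not tested.

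The gene aqp12 (ENSDARG00000043279, Zv9 chromosome 22, 2117481 to 2129581) belongs to an intracellular aquaporin type that mammals express in pancreatic acinar cells. Its posterior fold in the authors' deposited table of replicate 2 was 4.08, a log2 ratio of 2.03, and its uncorrected fold was 4.11. The 15 acinar markers listed there lay on the same side, at log2 ratios of 2.47 to 3.55 with a median of 2.84, all farther from 1 than aqp12. Their part in the ratio of aqp12 was not tested. Its absence from replicate 1 is not informative about a ratio of this size, because the listed ratio nearest to 1 on that side was 35.3 in replicate 1 and 2.98 in replicate 2.

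**Figure D2:**
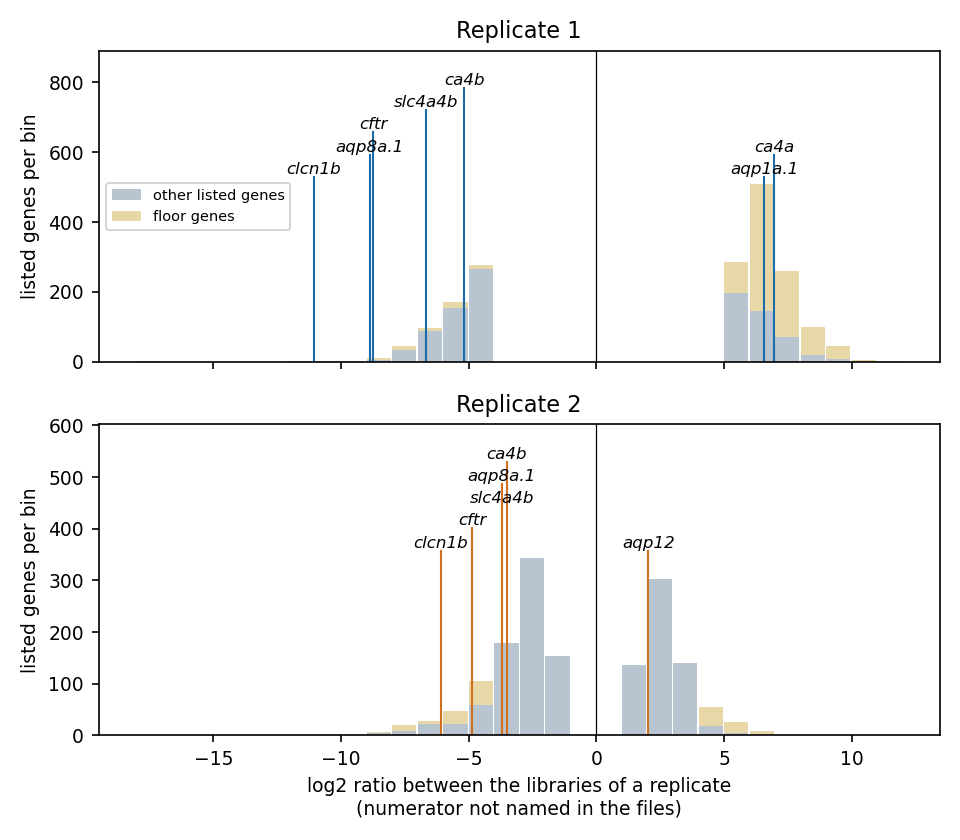
Number of listed genes per bin of 1 on the log2 scale (vertical axis) against the log2 ratio between the CAC and non-CAC libraries (horizontal axis, numerator not named), in replicate 1 (top) and replicate 2 (bottom), with floor genes in yellow. Vertical lines mark the transport genes. In replicate 1, clcn1b, aqp8a.1 and cftr stand in the sparse lower tail and ca4a and aqp1a.1 in bins made up largely of floor genes. Neither table lists ratios near 1.

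The range of listed ratios limits what can be said about size. All 5 genes below 1 in both tables were farther from 1 in replicate 1, by 1.67 to 5.17 on the log2 scale. On that side, the listed ratio nearest to 1 was 0.0571 in replicate 1 and 0.325 in replicate 2, so genes listed in replicate 1 had to be far from 1. The median over all genes below 1 was -5.10 in replicate 1 and -2.81 in replicate 2. The direction of the difference in scale is thus shared with the tables as a whole, while its size varied by gene. It was larger than the gap between these medians for slc4a4b (2.95), cftr (3.89), clcn1b (4.96) and aqp8a.1 (5.17), and smaller for ca4b (1.67).

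The order of the 5 genes was similar in the replicates. In both authors' deposited tables clcn1b was the lowest and ca4b the highest, with cftr below slc4a4b. The exception was aqp8a.1, which lay just below cftr in replicate 1, at -8.88 against -8.74, and just above slc4a4b in replicate 2, at -3.70 against -3.71. The order of aqp8a.1 against both cftr and slc4a4b reversed between the replicates, so its place among these neighbours was not resolved. Its spread of 3.66 (SD, n = 2 replicates) includes the difference in scale between the replicates and does not measure these gaps. Among the 352 genes in both tables, ranked by mean log2 ratio from the lowest, clcn1b was at position 2, cftr at 7, aqp8a.1 at 13, slc4a4b at 45 and ca4b at 104. In the same order of genes, the positions were 2, 7, 6, 41 and 140 by replicate 1 alone. By replicate 2 alone they were 8, 22, 64, 63 and 76.

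In a comparison over replicates, limma was fitted to the within-replicate log2 ratios of all 352 shared genes, with Benjamini-Hochberg adjustment. The means were -8.59 for clcn1b, -6.80 for cftr, -6.29 for aqp8a.1, -5.19 for slc4a4b and -4.34 for ca4b (n = 2 replicates, both below 1). Each had a standard error of 2.19, which the fit drew from the spread of all 352 shared genes. The genes' own SDs ran from 1.18 for ca4b to 3.66 for aqp8a.1 (n = 2 replicates). With this limma fit, clcn1b passed at an adjusted p of 0.0183. The limma adjusted p was 0.0678 for cftr and for aqp8a.1, 0.0719 for slc4a4b and 0.0865 for ca4b, so these did not pass at 0.05. The fit called 4 genes below 1, 1.14% of those tested, and 0 above 1, with 104 (29.5%) and 93 (26.4%) at an unadjusted p of 0.05. All 5 transport genes were among the 104, and ca4b was at position 104 by mean. As these genes share a standard error, this count restates their ranks by mean and lends no separate weight.

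Shared genes had been listed for large ratios in both tables, and the p-values carry that selection. The fit gave every transport gene the same standard error, so the order of the p-values is that of the means. The ratios were not rescaled between the tables, so this standard error includes the difference in scale between the replicates. Whether a gene passed therefore depended on the size of its mean and on that scale. It does not measure how well the replicates agree for that gene. An exact sign-flip test over 2 pairs cannot go below 0.5 (two-sided), and none was run. All 5 of the shared transport genes lay below 1 in both tables, beside 61.4% of all shared genes, and 0 lay above 1 in both, beside 32.7%. Of the genes below 1 in replicate 1, 36.0% were also listed in replicate 2, and of those above 1, 11.1% were. The corresponding counts here were 5 of 5 and 0 of 2.

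**Figure D3:**
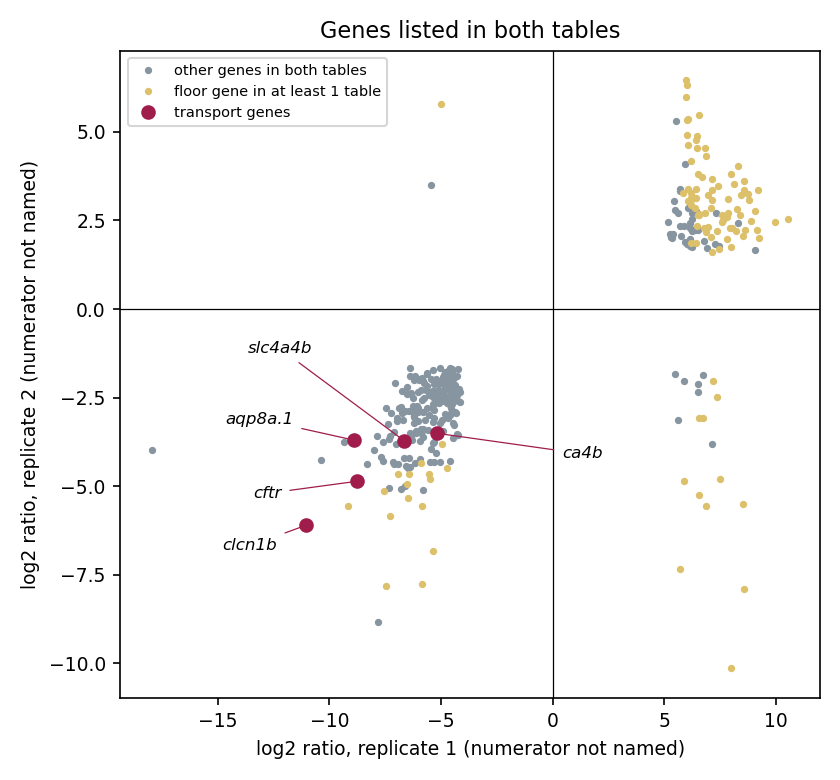
Deposited log2 ratios of the 352 genes that both tables list, replicate 1 on the horizontal axis and replicate 2 on the vertical axis (numerator not named). The 5 transport genes, in red, lie in the lower left, with clcn1b and cftr at the outer edge of that cloud and ca4b in its denser part. Yellow points are floor genes in at least 1 table.

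The genes most like each transport gene were found by distance in percentile rank over the 2 replicates, among 264 other shared genes with a symbol. The nearest to cftr were cbln17, a cerebellin-like gene, cldn29, a claudin gene, and her15.2, a Notch-induced repressor gene, at 2.84, 2.90 and 3.99 percentile points. The nearest to clcn1b were cldn29 at 1.42 points, cftr itself at 4.22 and cbln17 at 4.34. In percentile rank, cftr was therefore close to clcn1b, and both to the same claudin gene, although clcn1b was not among the 3 nearest to cftr. Percentile ranks narrow gaps in a sparse tail. In the authors' deposited tables, clcn1b and cftr were at log2 ratios of -11.07 and -8.74 in replicate 1. In replicate 2 they were at -6.11 and -4.86. In the authors' deposited tables, cldn29 was at log2 ratios of -9.15 and -5.54. Both cldn29 and cbln17 were floor genes in replicate 2, and reads of her15.2 may be shared with its close copy her15.1.

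For slc4a4b, the nearest genes were the claudin gene cldn7b at 2.44 percentile points, the tetraspanin gene cd9b at 4.19 and GGT5 at 4.55. The nearest to aqp8a.1 were TMEM196 at 1.27 points, the keratin gene krt94 at 2.29 and TMEM72 at 3.51. ca4b was closest to FLRT2 at 4.49 points, MYLK, a myosin light chain kinase gene, at 5.12, and elf3, an epithelial transcription factor gene, at 6.73. With 2 values per gene, likeness is a description of 4 libraries.

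A wider list of 160 transport genes, which includes the 8, was read from the same tables, with symbols matched exactly, upper and lower case included. By this match it had 13 genes in replicate 1, 6 below and 7 above 1, and 10 in replicate 2, 8 below and 2 above. Over all listed genes, 33.4% in replicate 1 and 57.1% in replicate 2 were below 1. Without the 8 genes of the set, the list had 1 below and 5 above in replicate 1. In replicate 2 it then had 3 below and 1 above. The list's median log2 ratio was 5.92 in replicate 1 and -3.60 in replicate 2, beside 6.02 and -1.90 over all listed genes. By exact match, 143 genes of the list were in neither table and 1 gene besides the 5 lay below 1 in both, with 0 genes above 1 in both. Matching without regard to case added ANO1 and CASR in replicate 1 and CASR and VIP in replicate 2, all above 1. CASR, of the calcium-sensing receptor, was then the 1 matched gene above 1 in both. The authors' deposited tables gave it log2 ratios of 6.57 (a floor gene) and 2.64. Neither match took symbols that lack a suffix the list uses, so the counts leave these out. The potassium channel gene kcnj1 (kcnj1a.1 and kcnj1b on the list) lay above 1 in both authors' deposited tables, at 7.59 (a floor gene) and 2.45. Below 1 were an SLC4A10 gene in replicate 1, at -9.64, and vipr1 in replicate 2, a floor gene at -5.25.

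The additional gene below 1 in both was ca2, which encodes a cytosolic carbonic anhydrase (Zv9 chromosome 24, 33852210 to 33870040). The authors' deposited tables gave ca2 log2 ratios of -5.55 in replicate 1 and -2.44 in replicate 2. Its limma adjusted p was 0.105. Its side was that of ca4b. Of 19 carbonic anhydrase genes on the list, the remaining listed member was ca15b, at -5.49 in the authors' deposited table of replicate 2 and missing in replicate 1.

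Of 17 aquaporin genes, 5 were listed in at least 1 table. Besides the 3 of the set, aqp3a, a channel for water and glycerol, lay below 1 in the authors' deposited table of replicate 2, at -2.65. The water channel gene aqp4 lay above 1 as a floor gene, and the authors' deposited table of replicate 1 gave it 6.96. Aquaporins therefore lay on both sides in each table.

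Of 28 chloride channel genes, the exact match took clcn2c besides clcn1b and cftr, and the authors' deposited table of replicate 1 gave clcn2c 5.92. It encodes a relative of a broadly expressed mammalian chloride channel. Of 27 bicarbonate and anion exchanger genes, slc4a10a, a sodium-coupled bicarbonate transporter gene, lay above 1, and the authors' deposited table of replicate 1 gave it 7.50. The same deposited table gave -9.64 to another gene with the symbol SLC4A10, which the match did not take. No gene of the slc26 anion exchanger family on the list was in either table, and neither were clcn1a and slc4a4a, the paralogs of clcn1b and slc4a4b.

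Of 37 genes for movement of sodium, potassium and protons, the exact match took 2, both above 1, and left out kcnj1. The authors' deposited tables gave slc12a10.1, of the sodium chloride cotransporter family, 6.04 in replicate 1 and the sodium-proton exchanger gene slc9a2 3.33 in replicate 2. Of 32 genes for secretion signals and partners, the exact match took vip alone, the gene of vasoactive intestinal peptide. It was a floor gene, and the authors' deposited table of replicate 1 gave it 6.88. The genes of sodium-potassium ATPase subunits on the list were in neither table. Absence from a table does not show equal expression, since a low gene or a ratio nearer to 1 than the listed ones would be missing as well.

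**Figure D4:**
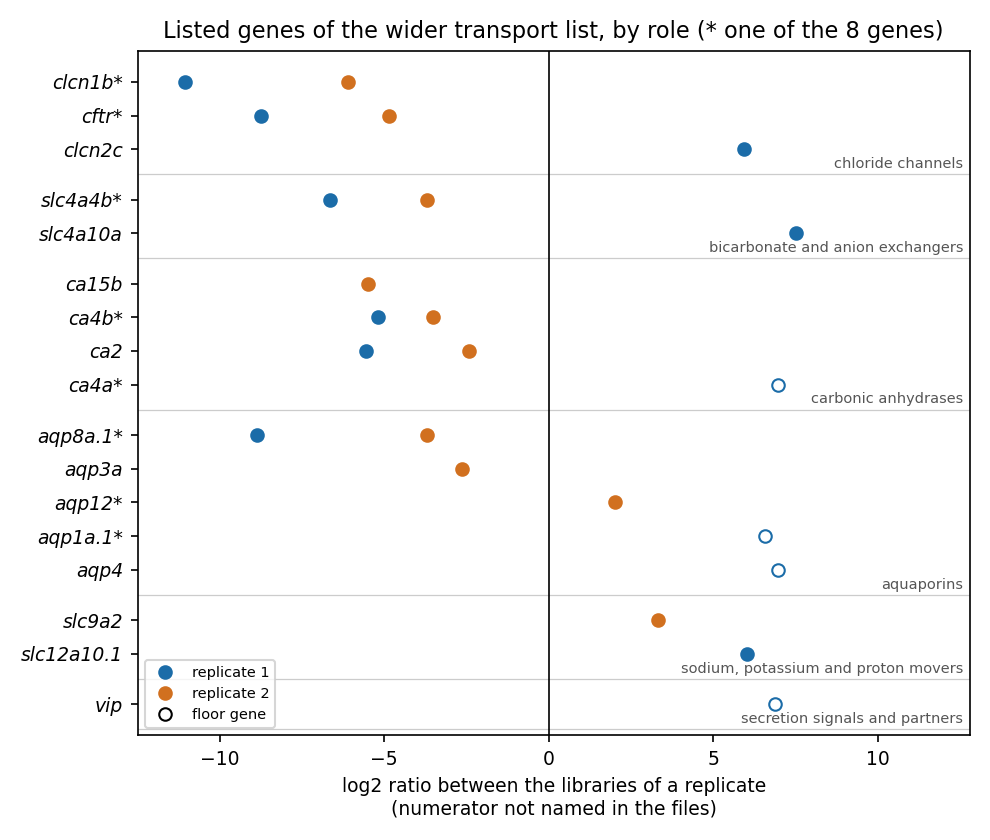
Log2 ratios between the CAC and non-CAC libraries (horizontal axis, numerator not named) of the 17 genes of the wider list that the exact match found in either table, grouped by role, with blue for replicate 1, orange for replicate 2 and open points for floor genes. Asterisks mark the 8 genes of the set. Only clcn1b, cftr, slc4a4b, ca4b, ca2 and aqp8a.1 have points in both colours, all below 0.

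The 8 genes lie on 8 different chromosomes of Zv9, so none is a neighbour of another. In replicate 2, the region below 1 also held egg coat and oocyte markers. Of 12 such markers, 6 were listed there, all below 1, at log2 ratios from -10.14 to -1.88 in the authors' deposited table. The lowest of them, zp2.5, was a floor gene. In replicate 1, 2 of the 12 were listed, both above 1 and both floor genes. The part of egg-derived RNA in the positions of the transport genes in replicate 2 was not tested. None of the 8 genes is on that marker list. Of 15 leukocyte markers, 7 were listed in replicate 1 and 5 in replicate 2, all above 1. Floor genes made up 5 of these in replicate 1 and 1 in replicate 2. Over all listed genes, 66.6% in replicate 1 and 42.9% in replicate 2 were above 1. Of 11 endocrine markers, 1 was listed in each replicate, above 1, and that of replicate 1, rfx6, was a floor gene. Of 7 hepatocyte markers, 0 were listed in either.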

How the data were processed

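Per the labels' protocols, TruSeq RNA libraries were prepared from sorted CAC and non-CAC. RSEM, Zv9 and danRer7 are named without a role in the submitters' processing notes. Zv9 was taken as the build of the loci. No source used here names the model behind the probabilities. Per the file headers, the deposited posterior probabilities are fractions and both deposited fold columns are linear ratios. Every listed gene had a posterior probability of difference of at least 0.99.

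From these, log2 of the posterior fold was computed (Python 3.11.15, pandas 2.3.3). With 1 library per group in a table, no test was made within it. Sample descriptions pair the libraries, and limma 3.58.1 (R 4.3.3) was fitted to their log2 ratios. The replicate entered as a block only through these within-replicate ratios. A check on simulated data came first, without the selection of genes or the difference in scale between the replicates. That check therefore gives no error rate for the genes here. Correlation of deviations could not be computed without library values.

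Members and lists were chosen with earlier results of these data known. Named genes were the members, every listed gene of the transport list and the 3 shared genes nearest to each member in percentile rank. Symbols were matched exactly, from the tables or through a table of Ensembl names. Of the 160 list symbols, 151 were in the RefSeq gene table. Alternatives were the uncorrected fold, a 4-fold threshold, a posterior probability of equal expression under 0.001, removal of floor genes, centring and single replicates. Added after the tables were seen were matching without regard to case and the second clcn1b identifier.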

Additional observations from a re-analysis of the deposited data

How the results depend on the processing

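The count of 5 transport genes below 1 in both tables was 5 under the uncorrected fold, a 4-fold threshold, a posterior probability of equal expression under 0.001, removal of floor genes and centring of each table on its median. Either replicate alone also gave 5. These counts were settled by the values of the genes and lend no separate weight. Centring took the median of the listed genes, 6.02, from every value of replicate 1 and so could only lower them. In replicate 2 it left ca4b at -1.61. The least extreme of the 5, ca4b, lay 36.2 and 11.4 times from 1, and none of the 5 was a floor gene. The posterior probability of equal expression of ca4b was 0.000567 in replicate 1. With the replicate block in limma, 1 of the 5, clcn1b, passed at an adjusted p of 0.05. The standard error of that fit includes the difference in scale between the replicates. On the wider list the count of 6 was 5 after centring, and 1 passed with the replicate block. Matching without regard to case left 6 below 1 in both tables and added 1 above 1 in both, CASR, where the exact match had 0. Neither match took kcnj1, which lay above 1 in both. Single replicates gave 7 to 8 on the majority side. In replicate 1 alone that side was above 1, with 7 genes against 6 below, so the direction reversed, and the 7 were genes that replicate 2 does not list. For single genes, centring kept every side but changed sizes, with clcn1b at -17.09 in replicate 1, and ca4a at 0.94 and aqp1a.1 at 0.56. The uncorrected fold moved ca4a to 14.13 and aqp1a.1 to 13.74. No depth or counting error could be given, because the tables hold no counts.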

Other observations

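Rows of related genes outside the exact symbol match were looked at after their values were seen. A second gene carries the symbol SLC4A10, of a sodium-coupled bicarbonate transporter, in the authors' deposited table of replicate 1. It lay at a log2 ratio of -9.64, the fifth lowest of the table, while the SLC4A10 gene matched to slc4a10a lay at 7.50. Neither was listed in replicate 2. ANO1, the symbol of a calcium-activated chloride channel, lay above 1 in the authors' deposited table of replicate 1, at 6.92, as a floor gene.

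Genes of the vasoactive intestinal peptide pathway, which stimulates duct secretion in mammals, lay on both sides. The receptor gene vipr1 was below 1 in the authors' deposited table of replicate 2, at -5.25, and VIP (vipb in the table of Ensembl names) was above 1 there, at 5.15. Both were floor genes.

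The listed gene nearest to aqp8a.1 in replicate 1 was HBQ1, the symbol of a globin gene, 28.8 kb away in Zv9 and on the opposite side, at 6.23 in the authors' deposited table. In replicate 2 the nearest listed gene to aqp12 was zgc:174224, 4.54 kb away and also on the opposite side from it, at -2.08 in the authors' deposited table. Elsewhere the nearest listed gene was on the same side for slc4a4b in both replicates (488 and 919 kb away) and for aqp1a.1 in replicate 1 (1487 kb). The same held for cftr (1306 kb) and ca4b (115 kb) in replicate 2. In the remaining cases it was on the opposite side, at 44.0 to 1379 kb. Over all listed genes, 33.4% in replicate 1 and 57.1% in replicate 2 were below 1.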
